A study of Mus musculus with 3 samples.

Results

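The 6 genes described here encode the cytokines IL-17A (Il17a), IL-17F (Il17f), IL-21 (Il21) and IL-22 (Il22, with its near-identical mouse copy Iltifb) and a chain of the IL-23 receptor (Il23r). They were chosen by name from the 19938 named genes of a microarray series on mouse CD4 T cells. Their 7 probes gave 6 signals, since a pair of probes annotated to both Il22 and Iltifb was averaged and reported as a single signal, written Il22/Iltifb. A further probe annotated to Iltifb alone was kept apart, and no probe was annotated to Il22 alone.

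All cells came from OT-II mice, strain B6.Cg-Tg(TcraTcrb)425Cbn/J, which carry a transgenic T cell receptor for an ovalbumin peptide. Naive splenic CD4+ T cells with the phenotype CD25-, CD62L high and CD44 low were sorted and stimulated with the peptide on T-cell-depleted splenic presenting cells. In all 3 cultures these presenting cells came from Il23a-/- mice, which lack a subunit of IL-23. Th0 cells received no cytokine, Th22 cells IL-6 alone, and Th17 cells IL-6 with TGFβ. RNA was taken after 60 hours, following magnetic purification, and put on 1 single-colour array per condition. The age of the mice and whether animals were pooled are not stated. With 1 array per group no difference has a replicate check or a test, and precision is limited by the number of arrays.

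IL-17A and IL-17F form homodimers and heterodimers that act on epithelial and stromal cells to draw in neutrophils. IL-22 acts on epithelial cells in barrier defence and repair, while IL-21 acts on lymphocytes, including the T cells that make it. IL-6 induces Il21 and Il23r through STAT3, and the receptor chain encoded by Il23r pairs with the product of Il12rb1 to let the cell respond to IL-23. TGFβ given with IL-6 drives the Th17 program, whereas IL-22 production in mouse T cells is known to be restrained by TGFβ.

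The array cannot assign the Il22/Iltifb signal to either copy, because both of its probes are annotated to Il22 and Iltifb. Probe and transcript sequences were not compared. Separately, the RefSeq promoter windows of Il22 and Iltifb (GRCm38.p6) share a stretch, found by local alignment. It is printed 5′ to 3′ to show sequence common to both windows, with capitals marking the bases that differ. It lies at chr10:118204885-118204938, plus strand, in the Il22 window and at chr10:118295042-118295095, minus strand, in the Iltifb window. Of its 54 bases 52 were identical, which the search for the best match favours, and the other 196 of the 250 bases searched in each window lay outside it. The Il22 window lies inside the gene's longest RefSeq model, so the stretch is not upstream of the gene in every model.
Il22: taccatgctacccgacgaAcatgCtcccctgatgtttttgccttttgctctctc
Iltifb: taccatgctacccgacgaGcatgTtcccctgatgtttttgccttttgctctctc

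The windows of Il17a, Il17f and Il23r are shown because the IL-17 pair was highest with TGFβ and Il23r highest without it. Each holds the 250 bases before a RefSeq start, that of Il17f lying inside the gene's longest model, 5′ to 3′ on the gene's strand, at chr1:20730655-20730904 (plus strand), chr1:20784271-20784520 (minus strand) and chr6:67491856-67492105 (minus strand) of GRCm38.p6. Capitals mark matches to 7 short motifs searched on both strands, with the TATA motif marked on the gene's strand alone. They were an AP-1 motif (TGANTCA), a STAT motif (TTCNNNGAA), a ROR core (AGGTCA), an aryl hydrocarbon receptor core (GCGTG), a MAF core (TGCTGAC), a RUNX core (TGTGGT) and TATAAA.
Il17a: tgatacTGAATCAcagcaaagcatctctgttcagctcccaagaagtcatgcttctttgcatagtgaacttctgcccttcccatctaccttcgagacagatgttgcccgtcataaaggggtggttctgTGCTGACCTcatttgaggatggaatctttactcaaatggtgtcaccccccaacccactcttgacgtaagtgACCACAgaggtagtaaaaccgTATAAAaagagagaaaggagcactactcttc
Il17f: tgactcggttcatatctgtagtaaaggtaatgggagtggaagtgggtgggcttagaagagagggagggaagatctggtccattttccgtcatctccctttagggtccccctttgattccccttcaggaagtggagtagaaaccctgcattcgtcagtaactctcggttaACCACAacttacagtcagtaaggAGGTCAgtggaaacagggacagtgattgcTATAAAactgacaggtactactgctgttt
Il23r: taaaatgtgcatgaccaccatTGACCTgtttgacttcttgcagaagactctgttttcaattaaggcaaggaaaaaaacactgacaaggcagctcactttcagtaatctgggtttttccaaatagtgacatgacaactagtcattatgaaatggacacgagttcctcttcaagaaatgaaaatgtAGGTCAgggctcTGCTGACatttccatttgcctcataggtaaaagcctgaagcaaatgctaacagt

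The Il17a and Il17f windows each held the ROR core, the RUNX core and TATAAA, while the Il23r window held 2 ROR cores and a MAF core. In Il17a the MAF core overlapped the ROR core, and an AP-1 motif stood further upstream. Of 32851 RefSeq promoter windows of this length 14% held the ROR core, 14% the RUNX core, 3.81% the MAF core, 6.75% the AP-1 motif and 7.59% TATAAA. The Il21 window matched only the aryl hydrocarbon receptor core, which 28.2% of windows held. The Iltifb window held a ROR core and the Il22 window only TATAAA. None of the 6 windows matched the STAT motif, found in 7.02% of all windows. These matches describe the letters in the windows and are no sign of binding.

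In the deposited table every probe is centred on its median of the 3 arrays, on a scale taken as log2. A member's middle array is therefore at 0, and differences between arrays are unchanged by the centring. Levels were removed by it, so members cannot be ranked against each other by abundance and signal over background is unknown. Of all probes 40.3% were exactly equal on the 3 arrays, and such a probe may be unchanged or below detection. A fold of 2, or 1 on the log2 scale, was counted as a difference.

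Il17a had a value of -2.62 in Th0, 0 in Th22 and 1.99 in Th17. Th0 was lowest and Th17 highest, with steps of 2.62 and 1.99 between neighbouring arrays. Il17f ran in the same order, at -4.86 in Th0, 0 in Th22 and 1.39 in Th17. Its step from Th0 to Th22 was larger than that of Il17a by 2.24 log2, while its step from Th22 to Th17 was smaller (1.39 against 1.99). The pair thus shared the order of the arrays but not the size of the steps. Il17f was 76.0-fold and Il17a 24.3-fold higher in Th17 than in Th0, and no gene outside the members had a larger difference than Il17f in that comparison. Quantile normalization gives the 3 arrays the same distribution of values. Here it was run on the centred values, so it evens out differences from the probe medians and not signal levels. It can thus enlarge differences as well as shrink them. With quantile normalization Il17a was 14.7-fold higher in Th17 than in Th0 and 2.57-fold higher than in Th22, in place of 3.96-fold.

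Il21, the autocrine cytokine gene of this group, was at -2.16 in Th0, 0 in Th22 and 0.05 in Th17. Th0 was low, and the other arrays were nearly level. Th22 and Th17 differed by 1.03-fold, well inside the range between probes of 1 gene, which was under 0.41 log2 for 95% of 999 genes with several probes. Against Th0, Il21 was 4.46-fold higher in Th22 and 4.61-fold higher in Th17.

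The IL-22 signals ran in another order. The Il22/Iltifb pair averaged -1.79 in Th0, 3.05 in Th22 and 0 in Th17. Both of its probes gave nearly the same values, at -1.78, 3.07 and 0 for the first and -1.80, 3.04 and 0 for the second. The array of Th22 was highest by 3.05 log2 (8.31-fold) over Th17, and Th17 stood 1.79 log2 (3.46-fold) over Th0. The Iltifb probe was at -0.85 in Th0, 3.32 in Th22 and 0 in Th17, again highest in Th22, but it placed Th17 only 1.80-fold over Th0, inside the threshold. The gap between the Iltifb probe and the pair was 0.67 log2 between Th22 and Th0 and 0.94 between Th17 and Th0. For 95% of genes with several probes the range was under 0.34 and 0.43, so the probes disagreed on the distance from Th0 more than most. That range covers genes with any size of difference, and not only those that differ as much as these signals. For Th17 against Th22 the gap was 0.27 log2, within the usual range.

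Il23r, the receptor gene, was at -1.87 in Th0, 2.87 in Th22 and 0 in Th17. It matched the Il22/Iltifb signal in order and closely in size. Their differences lay within 0.10 log2 of each other for Th22 less Th0 (4.74 and 4.84), 0.08 for Th17 less Th0 (1.87 and 1.79) and 0.18 for Th17 less Th22 (-2.87 and -3.05). With quantile normalization Il23r and Il22/Iltifb were at 4.96 and 5.23 for Th22 less Th0 and at 1.89 and 1.83 for Th17 less Th0. For Th17 less Th22 they were then at -3.07 and -3.40, so the order held but 2 of the 3 differences were less close. Il23r and the IL-22 signals were therefore lowest in Th0, intermediate in Th17 and highest in Th22, whereas the IL-17 genes were highest in Th17.

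**Figure D1:**
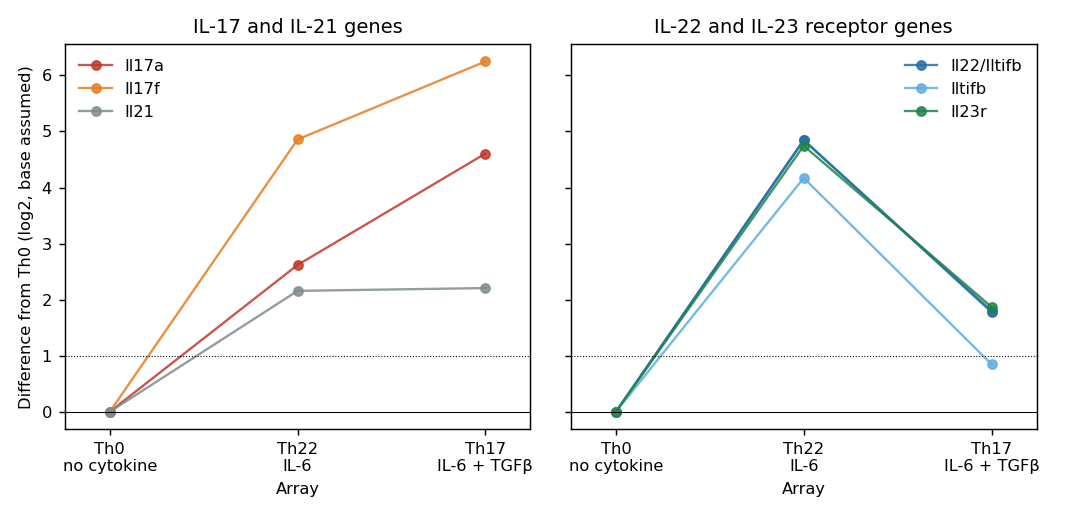
Difference of each member probe from its Th0 value (y axis, log2 with the base assumed) on the 3 arrays (x axis), 1 line per probe, with the dotted line at 2-fold. Il17a and Il17f are highest in Th17, Il21 is level between Th22 and Th17, and Il22/Iltifb, Iltifb and Il23r are highest in Th22.

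Counted over the 6 signals, all 6 exceeded their Th0 value by 2-fold or more in Th22, with a median of 4.46 log2. Of all genes 0.547% did so, and 0.261% were lower by that much. In Th17, 5 of 6 exceeded Th0 by 2-fold or more, the exception being the Iltifb probe, with a median of 2.04 log2. Of all genes 1.47% did so and 1.56% were lower. Between the cells given IL-6, 2 of 6 exceeded Th22 by 2-fold or more in Th17 (Il17a and Il17f), 3 were lower (Il22/Iltifb, Iltifb and Il23r) and Il21 was within 2-fold. In that comparison 1.1% of all genes were higher and 1.5% lower. The median over all genes was 0 in each comparison, which says little because 8874 to 9312 of the 19938 genes were exactly equal on the arrays compared. The genes were picked for their known part in these subsets, with earlier results of these arrays known, so their counts are a description. The comparisons share arrays, Th0 being the control of 2 of them.

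Quantile normalization left the direction of all 16 member differences past 2-fold as it was, but put Il17f only 1.90-fold higher in Th17 than in Th22. The count of that comparison then became 1 higher and 3 lower. The same procedure changed the background of Th22 against Th0 from 109 genes higher and 52 lower to 150 and 158. If the deposited scale were natural logs, the folds would be larger, for example 128.6 in place of 29.0 for Il17f and 127.1 in place of 28.7 for Il22/Iltifb in Th22 against Th0.

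Among all other named genes, those nearest to each member were found by Euclidean distance over 2 differences, Th22 minus Th0 and Th17 minus Th22, from the 3 arrays. Nearest to Il17a was Emp1, a membrane protein gene, at a distance of 0.28 log2, 4.41 log2 higher in Th17 than in Th0 beside 4.61 for Il17a (3.64 and 3.87 with quantile normalization). Ctsw (cathepsin W), Myof, Serpinb1a and the nuclear receptor gene Rora followed, up to 1.29 away. Genes near Il17f lay further off. The protease inhibitor gene Timp1 was nearest at 0.83, then Serpinb1a at 1.18 and Ly6g at 1.90, while Il17a itself lay 2.32 away. For Il21 the nearest were the transporter gene Slc4a11 (0.24), Crispld2 (0.61), Igfbp4 (0.64), the kinase gene Txk (0.65) and the leukotriene receptor gene Cysltr1 (0.68).

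The nearest gene to Il23r was a member, since the Il22/Iltifb signal lay 0.21 log2 away and the Iltifb probe 0.73. Outside the members the nearest to all 3 of these signals were the same 5 genes, namely the serpin gene Serpinb5, the matrix proteoglycan gene Lum, the IL-1 decoy receptor gene Il1r2, the cadherin gene Cdh17 and Moxd1. Serpinb5 lay 1.21 from Il22/Iltifb, and Lum 0.92 from the Iltifb probe. Il1r2, Cdh17 and Moxd1 lay further off, from 1.72 (Il1r2 to the Iltifb probe) up to 2.53 (Moxd1 to Il22/Iltifb). The 3 signals lie close together, so a shared list follows from that and adds nothing to their likeness. Lum differed from the members in standing 0.38 log2 lower in Th17 than in Th0, and Il1r2 likewise stood 0.59 log2 lower there. A likeness over 3 arrays is a description of these arrays alone.

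**Figure D2:**
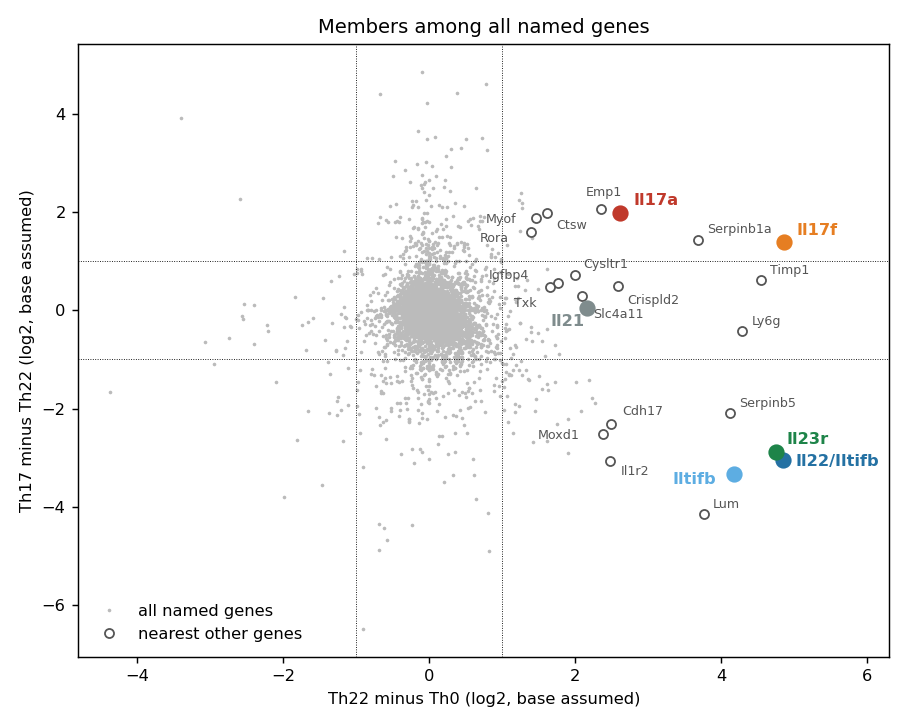
Each grey point is 1 of 19938 named genes, placed by Th22 minus Th0 (x axis) and Th17 minus Th22 (y axis), both in log2 with the base assumed and sharing the Th22 array, with dotted lines at 2-fold. Open circles are the nearest other genes and filled circles the members. Il23r and Il22/Iltifb lie 0.21 log2 apart at the lower right, and Il17a and Il17f at the upper right.

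The differences of the members were set beside those of the nearest measured genes on the chromosome, 3 on each side by RefSeq gene order. Of 24 such neighbours 23 were within 2-fold for Th22 against Th0, the comparison in which every member signal was higher. The exception was Ifng, the interferon gamma gene, which follows Il22 and Iltifb on the chromosome and was 3.06 log2 lower in Th22, opposite to its neighbours. In Th22 against Th0, 0.547% of all genes were higher and 0.261% lower by 2-fold or more. Most genes anywhere were thus within 2-fold, and the count does not set the neighbours apart. For Th17 against Th0, 20 neighbours were within 2-fold, Paqr8 was higher, and Ifng, Il2 and Il12rb2 were lower. Of all genes 1.47% were higher and 1.56% lower there.

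Il2, the T cell growth factor gene next to Il21, was 0.21 log2 lower in Th22 and 3.31 log2 lower in Th17 than in Th0, while Il21 was higher in both. Il12rb2, the IL-12 receptor gene next to Il23r, was 0.14 log2 higher in Th22 and 2.41 log2 lower in Th17 than in Th0. Between the IL-6 cultures Il12rb2 and Il23r were both lower in Th17, by 2.56 and 2.87 log2, but in Th22 against Th0 only Il23r passed 2-fold. With quantile normalization the difference of Th17 from Th22 was -1.56 log2 for Il12rb2 and -3.07 for Il23r, so their sizes were then not alike. The same scaling put Il2 2.12 and Il12rb2 1.40 log2 lower in Th17 than in Th0, and Ifng 3.66 log2 lower in Th22 than in Th0. Beyond Il17a and Il17f, the replication gene Mcm3 differed by 0.15 log2 or less in every comparison. Paqr8, the gene after it, was 1.69 log2 higher in Th17 than in Th0 and 1.23 higher in Th17 than in Th22, the second of which became 0.81 with quantile normalization.

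**Figure D3:**
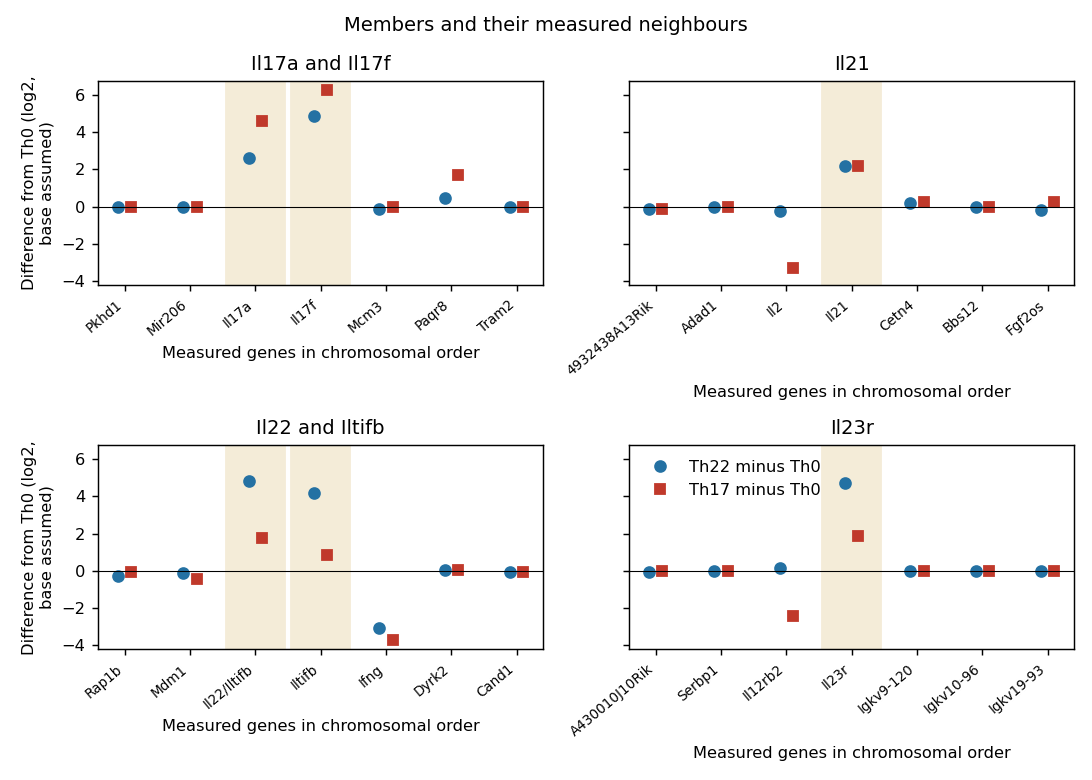
Difference from Th0 (y axis, log2 with the base assumed) of the members (shaded) and their measured neighbours in chromosomal order (x axis), circles for Th22 and squares for Th17. Most neighbours sit near 0, with Ifng at -3.06 and -3.72, Il2 at -3.31 in Th17 and Il12rb2 at -2.41 in Th17.

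Receptor genes for the members' own products were mostly within 2-fold of Th0. The 4 measured receptor genes for IL-21 and IL-22 were Il21r, Il22ra1, Il10rb and the soluble binding protein gene Il22ra2. Of these 0 differed by 2-fold in any comparison, and the largest difference was 0.20 log2, for Il21r in Th22 against Th0. At most 1.47% of all genes were higher and 1.56% lower by 2-fold in any comparison, so a count of 0 is usual. Il2rg, which encodes the shared chain of the IL-21 receptor, was not analysed here. Of 10 other genes of the IL-17 family and its receptors, 2 exceeded Th0 by 2-fold or more in Th17. They were Il17ra, the shared receptor chain (1.42 log2, and 0.87 in Th22), and Il17re, the IL-17C receptor chain (1.77 log2, and 0.28 in Th22). The genes of the other ligands, Il17b, Il17c, Il17d and Il25, differed from Th0 by at most 0.07 log2 on both other arrays.

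Il12rb1, which encodes the partner of the Il23r product, did not share its pattern, at 0.23 log2 lower in Th22 and 0.71 lower in Th17 than in Th0. Il23a was 0.05 and 0.16 log2 lower in the same order, and Il12b was equal on all 3 arrays. Receptor genes for the added cytokines differed mainly in Th17. Il6ra was 0.86 log2 higher in Th22 and 1.13 in Th17 than in Th0, while the signalling chain gene Il6st was 0.10 lower and 1.75 higher. Tgfbr1 was 0.49 lower and 2.23 higher, and Tgfbr2 0.17 lower and 0.93 higher. Tgfbr1 was 1.54 log2 higher in Th17 than in Th0 with quantile normalization.

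Of 23 measured genes on a list of factors known to activate the members, 2 exceeded Th0 by 2-fold or more in Th22, Rora (by 1.39 log2) and Sox5 (1.22). In Th17, 5 were higher than in Th0, namely Maf (4.23 log2), Rora (2.99), Ahr (2.08), Ikzf3 (1.25) and Runx1 (1.21), and 0 lower. Of all genes 0.547% were higher and 0.261% lower than Th0 by 2-fold or more in Th22, and 1.47% and 1.56% in Th17. The list was chosen with earlier results of these arrays known, so its counts are a description. Rora followed the order of Il17a and Il17f, with values of -1.39 in Th0, 0 in Th22 and 1.60 in Th17. Sox5 alone of the 23 stood 2-fold or more above both other arrays in Th22, being equal in Th0 and Th17. Stat3, Batf and Irf4 stayed within 0.35 log2 of Th0 on both arrays. Ikzf3 and Runx1 were 1.77-fold and 1.74-fold higher in Th17 than in Th0 after quantile normalization.

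Maf stands on the list of restraining factors as well, because its product is known to repress Il22. It was 0.72 log2 higher in Th22 than in Th0 and 3.51 higher in Th17 than in Th22, the comparison in which the IL-22 signals were lower. Ahr, the ligand-activated receptor gene known to promote Il22, was 1.85 log2 higher in Th17 than in Th22, opposite to the IL-22 signals. The part of Maf or Ahr in the IL-22 signals was not tested, and 1 array per group cannot tell their parts apart. Of 23 measured restraining factors, 3 fell short of Th0 by 2-fold or more in Th22 (Gata3, Tbx21 and Irf8) and 0 exceeded it so. In Th17, 4 were higher than in Th0 (Maf, Foxp3, Bcl6 and Socs3) and 3 lower (Gata3, Tbx21 and Gfi1). The shares of all genes were 0.547% higher and 0.261% lower in Th22, and 1.47% and 1.56% in Th17. This list too was chosen with earlier results known, so its counts are a description. Foxp3, which encodes the defining factor of regulatory T cells, was 0.15 log2 lower in Th22 and 3.50 higher in Th17. Tbx21, the T-bet gene, was 1.18 lower in Th22 and 3.84 lower in Th17, and Gata3 1.81 and 4.46 lower. With quantile normalization the differences of Th17 from Th0 were smaller, at 3.54 log2 for Maf, 2.79 for Foxp3, -3.10 for Tbx21 and -3.72 for Gata3. Under it Maf was 2.81 and Ahr 1.25 log2 higher in Th17 than in Th22.

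**Figure D4:**
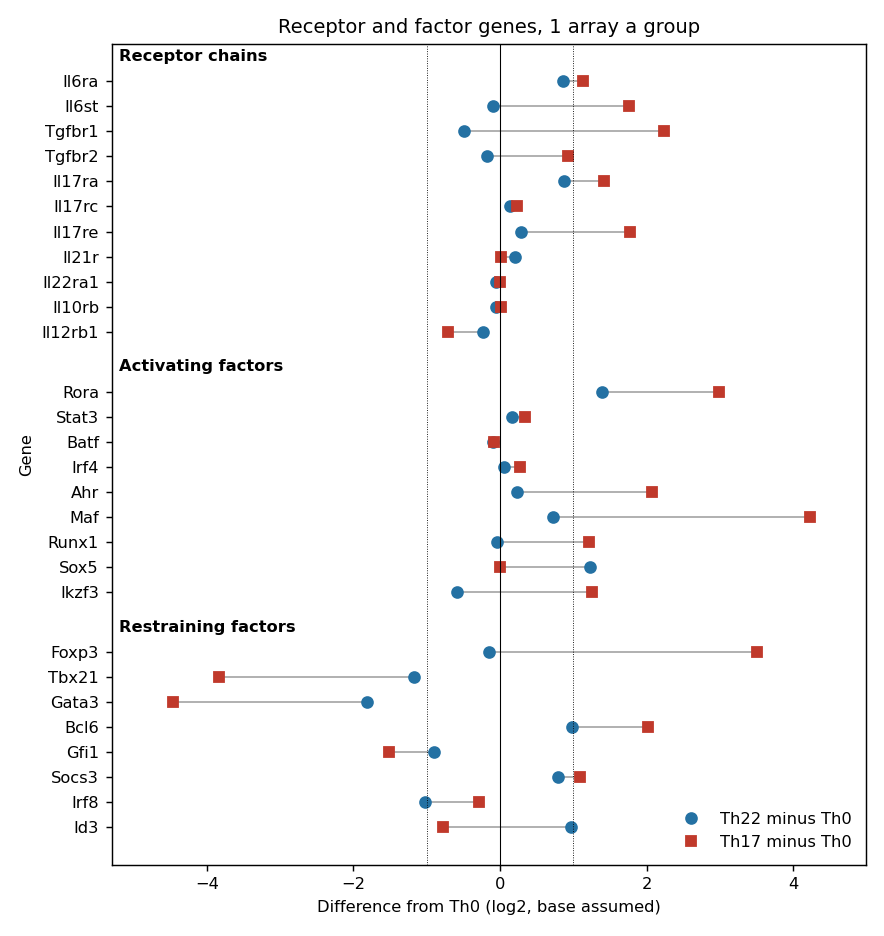
Difference from Th0 (x axis, log2 with the base assumed, dotted lines at 2-fold) of receptor and factor genes (y axis), circles for Th22 and squares for Th17. Maf, Foxp3, Tgfbr1 and Ahr are past 2-fold in Th17 and not in Th22, Rora is higher in both, and Tbx21 and Gata3 are lower in both.

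Over all 11 lists of pathway genes, 126 genes without the members, 4.76% were higher and 7.94% lower than Th0 by 2-fold or more in Th22, beside 0.547% and 0.261% of all genes. The 7.94% are 10 genes, which became 17 with quantile normalization. In Th17 against Th0 16.7% were higher and 12.7% lower, beside 1.47% and 1.56% of all genes. In Th17 against Th22 15.1% were higher and 11.9% lower, beside 1.1% and 1.5%. The lists were chosen with earlier results of these arrays known, so larger shares than those of all genes are a description. Many of all genes were exactly equal on the arrays compared (8985 of 19938 in Th22 against Th0), which lowers their shares. Of 17 measured genes of other T helper cytokines, 6 fell short of Th0 by 2-fold or more in Th22 (Il9, Ifng, Il13, Csf2, Il4 and Il5) and 0 exceeded it so, with a median of -0.67 log2. In Th17, 8 fell short of Th0 so, among them Il3 (5.56 log2 lower, or 4.82 with quantile normalization), and Il10 exceeded it. Of 6 measured genes of IL-1 and IL-18 reception, Il1r2 (2.47 log2) and Il18r1 (2.23) were higher in Th22 than in Th0, as Il22/Iltifb and Il23r were. In Th17 they lay within 2-fold of Th0, at -0.59 and 0.44.

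IL-22 belongs to the IL-10 family. Of 7 other genes of the family and its receptors 3 were equal on all 3 arrays, and may be unchanged or below detection. None of the 7 passed 2-fold in Th22 against Th0. In that comparison 0.547% of all genes were higher and 0.261% lower by that much, so a count of 0 is usual. In Th17 against Th0, Il10, the anti-inflammatory cytokine gene, was 3.73 log2 higher, while the IL-10 receptor gene Il10ra was 3.06 log2 and the cytokine gene Il24 1.11 log2 lower. Genes for homing and surface proteins of IL-17 producing cells were past 2-fold above Th0 in 1 of 12 cases in Th22 (Cxcr3, 1.18 log2) and in 4 of 12 in Th17. The latter were Ccl20 (4.19 log2), Cxcr6 (2.59), Ccr6 (1.69) and Itgae (1.18). On both arrays 1 of the 12 was past 2-fold below Th0, the cytokine gene Tnfsf11, at -1.12 in Th22 and -1.75 in Th17. For Th17 against Th0, 1.47% of all genes were higher and 1.56% lower by 2-fold or more. With quantile normalization Ccl20 was 3.32, Cxcr6 1.95 and Il10 3.07 log2 higher, and Il10ra 1.96 log2 lower, in Th17 than in Th0. Ccr6, the receptor gene for the Ccl20 product, followed the order of Il17a, at -0.65 in Th0, 0 in Th22 and 1.04 in Th17. Its step from Th0 to Th22 was within 2-fold, and that from Th22 to Th17 became 0.69 log2 with quantile normalization. Itgae was 1.72-fold higher in Th17 than in Th0 after quantile normalization.

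In bulk RNA, more cells making a cytokine and more RNA per cell cannot be told apart. Innate lymphoid cells and gamma-delta T cells also make IL-17 and IL-22, so markers of other cells were set beside the members. Of 11 innate lymphoid and NK genes, 15 myeloid and dendritic genes and 7 B cell genes, 0 differed by 2-fold in any comparison. At most 1.47% of all genes were higher and 1.56% lower by that much in any comparison, so a count of 0 is usual. Some innate lymphoid and NK genes came near 2-fold in Th17 against Th0. Lta was 0.98 and Kit 0.85 log2 higher, while Klrk1 was 0.80 and Eomes 0.79 log2 lower. Of 13 gamma-delta T cell genes 3 were measured, and none differed by more than 0.0749 log2 between arrays, while the receptor genes Trdc and Tcrg-C1 were not analysed here. Of 7 neutrophil genes, Ly6g was 4.29 log2 higher in Th22 and 3.87 in Th17 than in Th0, and Cxcr2 2.27 and 0.39. With quantile normalization Ly6g was 3.24 log2 higher in Th17 than in Th0. The defining genes S100a8, S100a9, Mpo and Csf3r were equal on all 3 arrays, which does not show whether they were detected. Of 2 CD8 T cell genes, Cd8b1 was 1.38 log2 lower in Th17 than in Th0, or 1.96-fold after quantile normalization. The part of the neutrophil and CD8 genes in the members' differences was not tested. The 9 measured pan T cell genes were within 2-fold, 0.13 log2 higher in Th22 and 0.31 lower in Th17 than in Th22 at the median. Whether T cell markers are present, or others absent, cannot be read from centred values, and summed levels could not be formed.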

How the data were processed

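Total RNA of 3 mouse CD4 T cell cultures was measured on 1 biotin-labelled, single-colour Affymetrix array each, and samples were grouped by the T-helper subset in the labels. The deposited table gives 28853 probes on a scale taken as log2, each as a difference from its own median over the arrays, which was exactly 0 for all 28853. How probes were summarised and normalized, with which software, and the base of the logs are not given in any source used here. Higher was taken as higher expression.

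Probes with 1 symbol in the platform annotation were renamed by Entrez identifier (21698 of 21789 matched) and averaged per gene. The 1621 probes with several symbols, other than the Il22/Iltifb pair, and 5443 unlisted ones were left out. Differences were taken between arrays and counted at 2-fold. That step was run on simulated data to check the calculation, which does not show how reliable a call is with 1 array per group. No test was possible. The error given is the range between probes of 1 gene, over 999 genes, which leaves out the spread between cultures. The members and lists were chosen with earlier results of these data known. Named genes are the members, their 3 neighbours on each side, the 5 genes nearest in pattern, the receptor chains and main factors, and list members past 2-fold. Scaling, threshold, log base and probe choice were varied, with quantile normalization run on the deposited centred values. Sequences are RefSeq's, with all 6 members matched. Python 3.11.15, numpy 2.4.6 and pandas 2.3.3 were used.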

Additional observations from a re-analysis of the deposited data

How the results depend on the processing

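Of 18 differences of member signals, 16 passed 2-fold. All 16 kept their direction under quantile normalization, and 15 stayed past 2-fold, but 11 of the 18 moved by more than the SD between probes, by up to 0.73 log2. Centring each array on the mean of its non-zero probes kept all 16 past 2-fold and moved values by at most 0.05 log2. The count of members higher in Th17 than in Th22 was 1 in place of 2 with quantile normalization and 1 with a threshold of 3-fold, Il17f being the member lost each time. With a threshold of 1.5-fold, and with natural logs, 6 in place of 5 members were higher in Th17 than in Th0. Averaging all IL-22 probes merges the Il22/Iltifb and Iltifb signals. It gave 5 in place of 6 higher in Th22 than in Th0, and 2 in place of 3 lower in Th17 than in Th22. Other choices among probes changed no count. They could alter only the Il22/Iltifb pair, whose probes differed by at most 0.03 log2, so that check could show little. Among pathway genes, 17 in place of 10 were lower in Th22 than in Th0 with quantile normalization. No paired analysis was possible because each group has 1 array. Centring removed the levels, so signal over background limits the values to an unknown degree.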
